A study of Mus musculus with 4 samples.

Results

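This set of 10 genes of the hypoxia response and of glucose use, Adm, Pfkfb3, Bnip3, Vegfa, Slc2a1, Car9, Pdk1, Egln3, Ndrg1 and Hk2, was followed across 4 arrays of mouse colon epithelium. Members were taken by symbol from the array's annotation, using the brightest probe set per gene among those with 1 symbol, and all 10 were found among 19938 named genes. Levels are log2 of the deposited intensity, and 12526 genes, the 10 included, reached the floor of 6 on at least 1 array and were analysed. The mice were C57BL/6, 6 to 8 weeks old, and every group, WT included, was in the same model of colitis-associated colorectal cancer. They received 10 mg/kg of the carcinogen azoxymethane and, 5 days later, 3.5% dextran sulfate sodium, which injures the colonic lining, for 5 days in drinking water. Colon epithelial cells were shaken off in EDTA at day 12, with no sorting described. The groups were Bmi1ΔIEC Mel18ΔIEC (DKO), Bmi1ΔIEC (called Bmi1_KO here), Mel18ΔIEC (Mel18_KO) and wild type (WT), with 1 array each. The proteins of Bmi1 and Mel18 (gene symbol Pcgf2) are alternative members of a Polycomb chromatin repressor, and the IEC mark states deletion in intestinal epithelial cells. The sources used here do not give the Cre driver or the number of mice behind an array.

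When oxygen is scarce, the prolyl hydroxylases that mark the HIF alpha subunits for destruction slow down, and HIF dimers accumulate and bind DNA at short sites built on ACGTG or GCGTG. Their targets shift cells towards glycolysis, away from mitochondrial use of pyruvate, and towards vessel growth. In the colon a low oxygen level at the mucosal surface is normal, so part of this programme is active in healthy epithelium. Many of these genes also answer to inflammation and to growth signals, and neutrophils and macrophages use glycolysis heavily.

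With no replicate of any genotype, differences have no replicate check and are values without a test. As an error scale 0.407 log2 units was used for a pair of arrays, an upper estimate for a typical gene, since it was computed from contrasts that also hold any real difference. All of these contrasts include DKO. The spread across genes of the pairs without DKO was 0.191 to 0.217, so 0.407 is wide for differences among Bmi1_KO, Mel18_KO and WT. The array labelled DKO stood apart, with a Pearson correlation across genes of 0.878 to 0.906 with the others, which correlated at 0.978 to 0.982 among themselves. The deleted genes did not check the labels: relative to WT, Bmi1 gave 0.40 on DKO and 0.18 on Bmi1_KO, and Pcgf2 gave -0.15 on DKO and -0.13 on Mel18_KO. Each was lowest on the array of the other single deletion, Bmi1 at -0.25 on Mel18_KO and Pcgf2 at -0.24 on Bmi1_KO, both inside the error scale. The labels do not state which exons were deleted, and probes outside the deleted part check nothing. Every direction below therefore rests on the labels alone. The WT array carried transcripts of the seminal vesicle, with a median level of 9.59 over 11 listed genes against 4.00 to 4.40 on the other arrays. Differences of the 10 genes from WT, and the list counts, are therefore given beside those from the mean of both single deletions, which leave that array out.

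The promoters show what the 10 genes share in sequence before their values are given. RefSeq's table (GRCm38.p6) held 250 bases before to 50 after a start site for 9 of the 10 genes, with 12 start sites in all, and had no entry for Ndrg1. A HIF core, ACGTG or GCGTG on either strand, was found at 10 of the 12 start sites and in all 9 genes. This letter pattern is common: it was present at 43.8% of the 32851 start sites in the table, at 60.2% of the 12619 that belong to genes analysed here, and in 65.7% of the 9988 analysed genes with an entry. Start sites of the 11 other pathway lists used below held it at 66.7% to 80.0%. A match is a description of the letters and does not show a bound site. The upstream stretches of 6 genes are printed, each from base -130 to base -1 before the start. The first 3 belong to the genes with the largest differences from WT on DKO. The others belong to genes with smaller ones: Slc2a1 (0.50), Car9 (-0.32) and Pdk1 (-0.33). Capitals mark each ACGTG or GCGTG, or its reverse complement CACGT or CACGC. They lie at chr7:110627527-110627656 (plus strand), chr7:138909507-138909636 (minus strand), chr2:11502091-11502220 (minus strand), chr4:119108615-119108744 (plus strand), chr4:43506896-43507025 (plus strand) and chr2:71873094-71873223 (plus strand), in the order printed and read 5′ to 3′ on the gene's strand. Pfkfb3 is shown at the downstream of its start sites.
Adm: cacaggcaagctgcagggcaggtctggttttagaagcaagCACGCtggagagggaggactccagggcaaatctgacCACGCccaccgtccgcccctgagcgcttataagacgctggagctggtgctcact
Bnip3: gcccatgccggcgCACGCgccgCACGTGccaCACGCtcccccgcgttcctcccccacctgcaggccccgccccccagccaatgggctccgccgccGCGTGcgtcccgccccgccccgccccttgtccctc
Pfkfb3: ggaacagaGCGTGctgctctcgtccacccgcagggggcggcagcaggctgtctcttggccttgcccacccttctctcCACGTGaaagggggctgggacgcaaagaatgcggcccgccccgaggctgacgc
Slc2a1: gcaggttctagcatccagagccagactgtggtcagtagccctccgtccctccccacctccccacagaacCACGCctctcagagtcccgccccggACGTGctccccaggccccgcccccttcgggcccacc
Car9: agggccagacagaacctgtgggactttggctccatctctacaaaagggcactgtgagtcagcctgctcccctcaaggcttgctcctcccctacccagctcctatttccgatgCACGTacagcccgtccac
Pdk1: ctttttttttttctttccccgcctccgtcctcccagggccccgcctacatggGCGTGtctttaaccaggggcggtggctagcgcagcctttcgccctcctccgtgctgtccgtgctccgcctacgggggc

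Bnip3 held the most matches, 5 in the stretch printed. Pfkfb3 had 3 there, Adm and Slc2a1 had 2 each, and Car9 and Pdk1 had 1 each. In Bnip3 and Pfkfb3 the marked run CACGTG reads ACGTG on both strands and so counts as 2 matches. For Hk2, 2 ACGTG matches lay in the window of 300 bases, and for Egln3 there was 1. In that window Pfkfb3 had 4 matches at its downstream start and 1 at its upstream one. For Vegfa, 2 matches were found at the downstream start and 0 at the upstream one, and the second start of Pdk1 also had 0. All 6 genes printed therefore carry the core near their start, whether they differed widely between arrays or not.

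Of the 10 genes 4 were at least 2-fold higher on DKO than on each of the other arrays: Adm, Pfkfb3, Bnip3 and Vegfa. Hk2, Egln3, Slc2a1 and Ndrg1 were also highest on DKO but by less, while Car9 and Pdk1 were lowest there. The shape is thus a split within the set, in which the secreted peptides, the mitophagy receptor and the glycolytic activator stood high and a surface enzyme and a mitochondrial kinase did not. Over all genes 629 of 12526 (5.02%) were at least 2-fold above every other array on DKO, 35.2% had their highest value there and 46.0% their lowest. Markers of neutrophils, except Ly6g and Camp, and of mononuclear phagocytes were also highest on DKO, each list with a median of 2.15 above WT. More such cells and more RNA per cell cannot be told apart in bulk RNA.

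**Figure D1:**
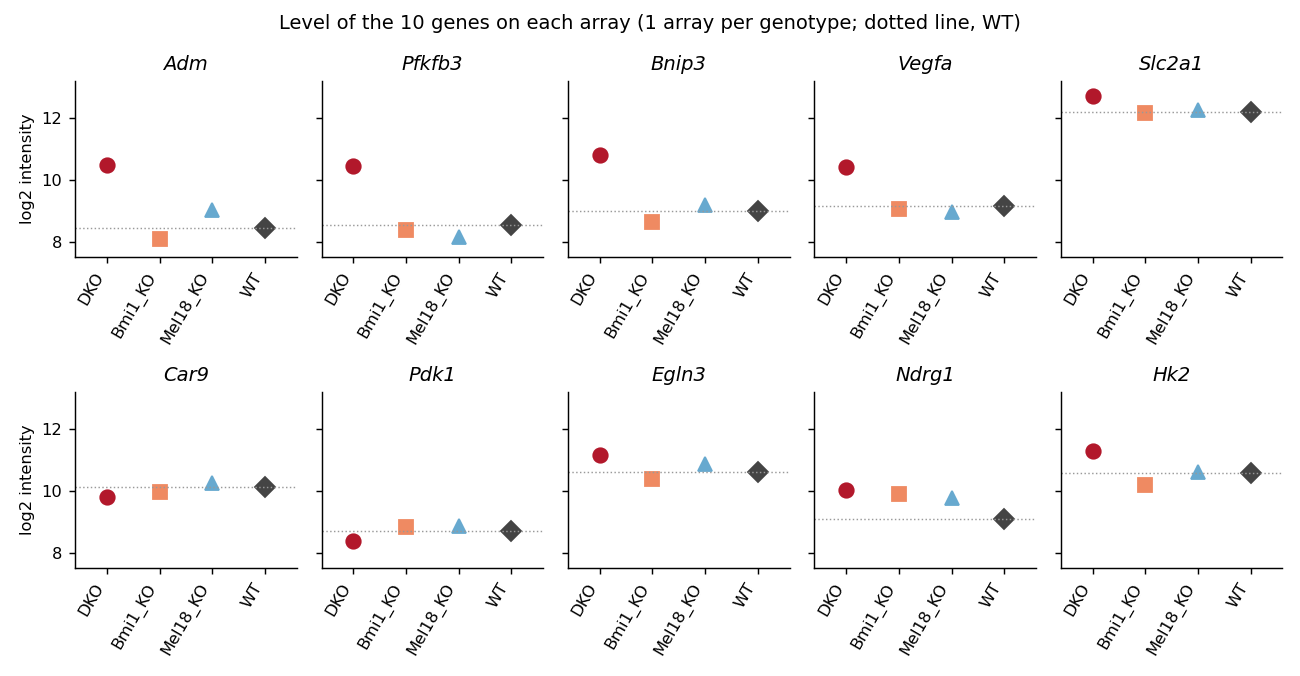
Each panel plots 1 gene's log2 intensity (vertical axis) on the 4 arrays, with a dotted line at the WT level and 1 array per genotype, so there are no error bars. Adm, Pfkfb3, Bnip3 and Vegfa stand clearly above the other arrays on DKO, Ndrg1 is low on WT, and Car9 and Pdk1 are lowest on DKO.

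The secreted factors come first. Adm (gene 11535, probe set 10556297) encodes adrenomedullin, a peptide that widens vessels and tightens endothelial and epithelial barriers. On DKO it read 10.50, against 9.04 on Mel18_KO, 8.44 on WT and 8.09 on Bmi1_KO. The DKO level was the highest, and the other 3 arrays were themselves spread over 0.95. Adm was 4.17-fold higher on DKO than on WT (log2 difference 2.06), and 1.65% of genes had a larger difference. Vegfa (gene 22339, probe set 10451198) encodes the main growth factor for blood vessels. Its level was 10.41 on DKO, against 9.07 for Bmi1_KO, 8.96 for Mel18_KO and 9.14 for WT, so the other 3 arrays lay within 0.19 of each other. Its difference from WT was 1.27, or 2.41-fold, and 5.10% of genes lay above it.

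Among the metabolic genes, Pfkfb3 (gene 170768, probe set 10480035) makes fructose 2,6-bisphosphate, the strongest activator of phosphofructokinase. Its level was 10.44 on DKO, against 8.38 for Bmi1_KO, 8.15 for Mel18_KO and 8.53 for WT. DKO exceeded every other array by at least 1.91, and the others spanned 0.38. Hk2 (gene 15277, probe set 10545588), the inducible hexokinase that commits glucose to the cell, read 11.29, 10.18, 10.61 and 10.58 in the same order of arrays. Its difference of 0.71 from WT, 1.63-fold, was under 2-fold and beyond the error scale. Slc2a1 (gene 20525, probe set 10507594), the basal glucose transporter GLUT1, read 12.71, 12.18, 12.27 and 12.21, so that DKO was 1.41-fold above WT and the others spanned 0.09. Pdk1 (gene 228026, probe set 10472846), a kinase that shuts pyruvate dehydrogenase and so keeps pyruvate out of mitochondria, read 8.37, 8.83, 8.85 and 8.70. It was the gene with the lowest difference from WT among the 10, at -0.33, which is within the error scale, and differed by -0.46 from Bmi1_KO and -0.48 from Mel18_KO, just beyond it.

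Bnip3 (gene 12176, probe set 10414269) encodes a receptor on the outer mitochondrial membrane that brings mitochondria to autophagy. Its level was 10.80 on DKO, against 8.66 for Bmi1_KO, 9.18 for Mel18_KO and 8.99 for WT, a difference of 1.80 from WT or 3.49-fold. The gene's other probe set, 10568785, read 9.95, 7.96, 8.41 and 8.12 in that order and gave a difference of 1.83, so both probe sets placed DKO highest and Bmi1_KO lowest. No other gene of the 10 had more than 1 probe set.

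The remaining 3 genes behaved in different ways. Egln3 (gene 112407, probe set 10400304), the prolyl hydroxylase that HIF itself induces and that feeds back on it, read 11.15 on DKO, 10.87 on Mel18_KO, 10.59 on WT and 10.38 on Bmi1_KO. DKO was 0.56 above WT, but Mel18_KO lay only 0.28 below DKO, which is less than the error scale. Car9 (gene 230099, probe set 10504337), a surface carbonic anhydrase that buffers acid and is one of the most used hypoxia markers, read 9.81, 9.94, 10.25 and 10.13. DKO differed from WT by -0.32, inside the error scale, and from Mel18_KO by -0.44, just beyond it. Ndrg1 (gene 17988, probe set 10429140), a stress-induced gene that rises with hypoxia and with epithelial differentiation, read 10.02, 9.90, 9.77 and 9.08. It was low on WT alone: all 3 deletion arrays lay above WT, by 0.95, 0.82 and 0.70.

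Against WT, 4 of the 10 genes were at least 2-fold higher on DKO, where 7.33% of all genes analysed were, and 0 were at least 2-fold lower, against 8.19% of all genes. At 1.5-fold, 6 were higher and 0 lower, where the shares of all genes were 14.3% and 20.2%. The median difference of the 10 was 0.83, beside -0.05 over all genes. The 10 genes were chosen with earlier results of these data known, so setting them beside all genes describes them and is no test of the set. Without the WT array, against the mean of Bmi1_KO and Mel18_KO, again 4 genes were at least 2-fold higher, beside 7.33% of all genes, and 0 lower, beside 6.51%. The values were 2.17 for Pfkfb3, 1.93 for Adm, 1.88 for Bnip3 and 1.40 for Vegfa, followed by Hk2 at 0.90. Egln3 (0.53), Slc2a1 (0.49), Car9 (-0.29) and Pdk1 (-0.47) were close to their differences from WT. Ndrg1 was not: its difference went from 0.95 to 0.19. Both comparisons contain the DKO array, so one does not check the other. Over all genes the split of 918 higher to 816 lower in the comparison without WT became 1046 to 555 after cyclic loess scaling, while these 4 genes lay between 1.35 and 2.32 under every alternative run.

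**Figure D2:**
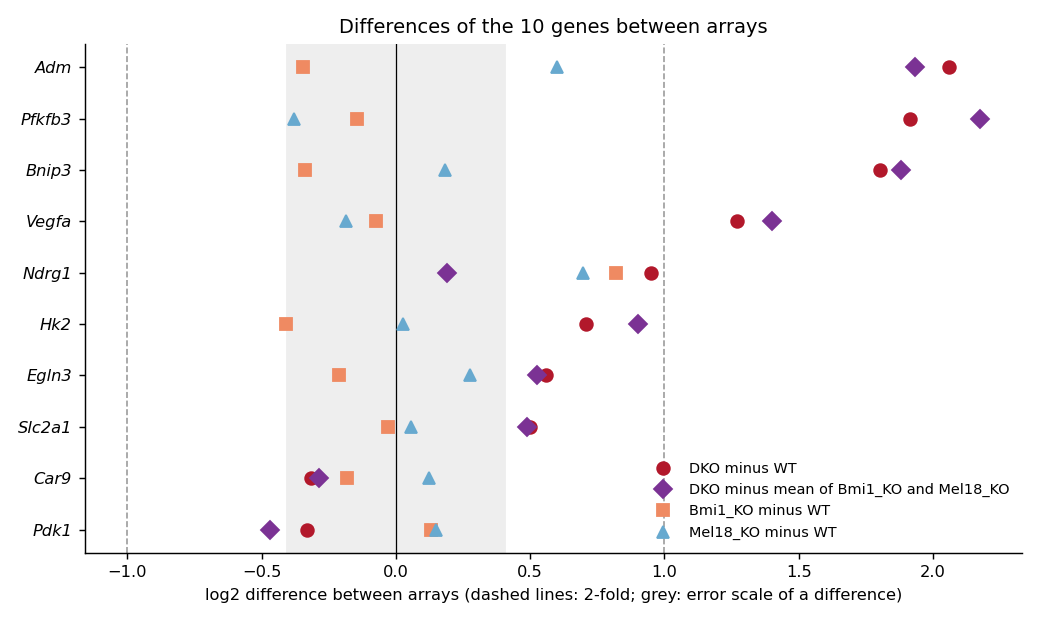
Log2 differences (horizontal axis) of the 10 genes, sorted by DKO minus WT, with dashed lines at 2-fold and grey for the error scale of 0.407. Circles (DKO minus WT) and diamonds (DKO minus the mean of single deletions) pass the 2-fold line for Adm, Pfkfb3, Bnip3 and Vegfa, and squares and triangles (each single deletion minus WT) pass it for 0 genes.

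Neither single deletion showed this pattern. On Bmi1_KO against WT, 0 of the 10 genes were at least 2-fold higher or lower, where 0.551% and 0.359% of all genes were. Ndrg1 (0.82) alone was 1.5-fold higher, beside 2.02% of all genes. Of the 10 differences 8 were below 0, from -0.03 for Slc2a1 to -0.41 for Hk2, and only Hk2 passed the error scale. The median of the 10 was -0.16, beside -0.02 over all genes. On Mel18_KO 0 genes were 2-fold higher or lower, beside 0.144% and 0.814% of all genes. Ndrg1 (0.70) and Adm (0.60) were 1.5-fold higher, beside 1.19% of all genes. Ndrg1 therefore exceeded WT on all 3 deletion arrays, where 1.04% of genes on Bmi1_KO and 0.615% on Mel18_KO had a larger difference. These comparisons share the WT array, which also carries the seminal vesicle transcripts, and the part of that array in the Ndrg1 values was not tested.

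Set directly against each other, the single deletions differed in the order of these genes. Bmi1_KO was below Mel18_KO for 7 of the 10, with a median of -0.20 beside -0.03 for all genes. Adm differed most, at -0.95, and 99.7% of genes had a higher value. Bnip3 (-0.52), Egln3 (-0.49) and Hk2 (-0.43) followed, each below at least 96.1% of genes, and each of these 4 differences exceeded the error scale. At 2-fold, 0 of the 10 were higher and 0 lower, beside 1.53% and 0.224% of all genes. At 1.5-fold 1 of 10 (Adm) was lower, beside 1.24% of all genes. Vegfa, Pfkfb3, Slc2a1 and Pdk1 lay between -0.09 and 0.23 in this comparison.

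A departure from additivity was taken as the DKO to WT difference less the sum of the differences of Bmi1_KO and Mel18_KO from WT. It was above 2-fold for 5 of 10 genes, beside 8.19% of all genes, and below it for 0, beside 6.43%. Here too the shares are no test, since the 10 genes were chosen with earlier results known. The 5 were Pfkfb3 (2.44), Bnip3 (1.96), Adm (1.80), Vegfa (1.53) and Hk2 (1.09), whereas Pdk1 gave -0.61 and Ndrg1 -0.57. Over all genes the split of 1026 to 805 became 1201 to 521 after cyclic loess, which moved the median of all genes by 0.10. This value contains the noise of all 4 arrays and has no error estimate of its own. An additive model of both losses, fitted to all genes with limma and left with 1 residual degree of freedom, called 0 of 12526 genes (0%) for the average change with loss of Bmi1 and 0 (0%) with loss of Mel18 at an adjusted p of 0.05. At an unadjusted p under 0.05 the counts were 324 and 138 of 12526 genes, below the share of 0.05 expected with no change. Only Adm of the 10 was among them, for loss of Mel18: it was higher in both pairs of arrays (0.60 and 2.41), with an adjusted p of 0.952 by limma. Without a floor, or with 32 added before log2, 0 of the 10 were among them. Since the departure from additivity is this model's residual, genes that stand high on DKO alone carry large errors in it.

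The other genes of the pathway were counted from lists, which were also chosen with earlier results of these data known. The counts are read beside the all-gene shares given above. Against WT these were 7.33% higher and 8.19% lower at 2-fold, and 14.3% and 20.2% at 1.5-fold. Against the single deletions they were 7.33% and 6.51% at 2-fold. Of 29 other HIF targets analysed, 6 exceeded WT by at least 2-fold on DKO and 1 fell short of it by as much. The list's median was 0.33, and at 1.5-fold 10 were higher and 3 lower. Against the single deletions 7 were 2-fold higher and 0 lower, with a median of 0.36. Hmox1, the heme-degrading oxygenase, led with 2.06. Hilpda, a lipid droplet protein, gave 1.90, and Ankrd37 1.48. Ero1a, which forms disulfide bonds in the endoplasmic reticulum, gave 1.47. Plod2, a collagen lysyl hydroxylase, gave 1.24 but read under the floor of 6 on the other 3 arrays, where a difference is rough. The sixth was the mTORC1 inhibitor gene Ddit4 (1.14), and the lower one was the secreted glycoprotein gene Stc2, which differed by -1.12. Against the single deletions neither passed 2-fold (Ddit4 0.92, Stc2 -0.94), while the collagen prolyl hydroxylase gene P4ha1 did (1.32, against 0.85 from WT). Bnip3l, the paralog of Bnip3 with the same role at mitochondria, gave 0.54.

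The enzymes that carry out glycolysis lay close to WT. Of 11 analysed, 0 were 1.5-fold higher or lower on DKO than on WT, with a median of -0.09, and Gapdh, Eno1 and Gpi1 had no probe set with 1 symbol. Ldha, which makes lactate, read 12.75 on DKO and from 12.76 to 12.78 on the others. Pgk1 gave -0.09, Aldoa 0.07 and Pkm 0.03. HIF is known to induce each of these enzymes, and its part in these values was not tested. Against the single deletions 1 of 11, Aldoc, was 2-fold lower (-1.19).

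Transporters differed in both directions. Of 11 analysed, 3 were 2-fold higher on DKO than on WT and 1 lower, and the counts were 3 and 1 against the single deletions as well. The facilitative glucose transporters Slc2a6 (1.57) and Slc2a3 (1.31) and the lactate exporter Slc16a3 (1.32) were higher, and Slc16a1 (-1.11), the transporter colonocytes use for butyrate and lactate, was lower. Slc16a3 read 10.52 on DKO and between 9.20 and 9.32 on the other arrays, and Slc16a1 read 10.10 against 11.15 to 11.40. Bsg, the chaperone that both need at the membrane, gave -0.06.

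Paralogs of the 10 genes differed from each other within families. Pdk4, the starvation-induced kinase of the same family as Pdk1, read 7.43 on DKO and 5.27 to 5.52 on the other arrays, a difference of 1.91 from WT that starts below the floor of 6. Pdk2 gave 0.27 and Pdk3 -0.46. Hk3, the hexokinase of myeloid cells, gave 1.70 from 5.64 on WT, while Hk1 gave -0.42 and Hkdc1 0.80. Pfkfb2 (0.17) and Pfkfb4 (0.30) were within the error scale beside Pfkfb3. Egln1 (0.08) and Egln2 (0.02) were level beside Egln3, and Ndrg2 (-1.46) and Ndrg3 (-0.64) were lower on DKO. Of 12 paralogs analysed, 2 were 2-fold higher and 1 lower, in both comparisons.

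Of 8 other carbonic anhydrases 5 lay 1.5-fold or more below WT on DKO, beside 20.2% of all genes, and 1 was higher, with a median of -0.61. The lower ones were Car3 (-1.32), Car12 (-0.80), Car2 (-0.70), Car5b (-0.64) and Car13 (-0.59). Car1 gave -0.58 and Car4 0.25, both of them enzymes of colonocytes, and Car8 gave 1.04. Without the WT array, 0 were 2-fold apart, 2 were 1.5-fold lower and the median was -0.45. Car8 then gave 0.86 and Car3 -0.21, and Car3 read above the floor of 6 on WT only.

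The genes of HIF itself were within 2-fold of WT. Of 13 genes for the HIF subunits and their oxygen-dependent degradation 0 were 2-fold apart, in either comparison. Against WT 8 were above 0 and 5 below, with a median of 0.08, and the median against the single deletions was 0.18. Hif1a gave 0.45, Epas1 (HIF-2 alpha) 0.88, Hif3a 0.94, their partner Arnt 0.33 and the ubiquitin ligase subunit Vhl 0.33. The other subunits of that ligase included lower values, with Rbx1 at -0.63, Cul2 at -0.55 and Elob at -0.36, and the asparaginyl hydroxylase gene Hif1an gave -0.32. HIF alpha proteins are controlled mainly by their stability, which an array of RNA does not measure. Of 10 ligands and receptors of the VEGF and adrenomedullin families 3 were 2-fold higher and 0 lower: the adrenomedullin receptor Calcrl (1.55), Pgf (1.44) and the VEGF receptor Flt1 (1.10), with Kdr at 0.97. Calcrl, Pgf and Kdr read under 6 on WT and Vegfb gave -0.51. Relative to the single deletions 2 were 2-fold higher, with Flt1 at 0.95.

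Genes of mitochondrial pyruvate use were lower on DKO. Of 15 enzymes of the citric acid cycle 15 were lower on DKO than on WT, with a median of -0.61 beside -0.05 over all genes. Of these 8 passed 1.5-fold against 20.2% of all genes. Fh1, the fumarase, differed by -1.17 and Idh3a by -1.03, the 2 that passed 2-fold. Of 9 genes of pyruvate dehydrogenase, its phosphatases and the pyruvate carrier 9 were lower, 4 by 1.5-fold or more, with a median of -0.52. Dlat, the core acetyltransferase, differed by -1.15 and the phosphatase Pdp2 by -0.91. After cyclic loess these medians were -0.44 and -0.34, 0 of either list passed 2-fold, and 8 of the 9 genes of the second list were still below WT, while all 15 of the first were. Relative to the single deletions all 15 and all 9 were lower, with medians of -0.73 and -0.64 beside -0.07 over all genes. In that comparison 1 and 2 passed 2-fold (Idh3a gave -0.77 and Pdp2 -1.13), beside 6.51% of all genes, so the 1 of 15 is near the common share. The pentose phosphate pathway had 2 of 6 genes 1.5-fold lower, Rpia (-0.65) and Tkt (-0.63). Of 5 genes of gluconeogenesis G6pc3 (-1.67) was 2-fold lower, and it gave -1.48 against the single deletions. On Bmi1_KO and Mel18_KO the medians of the citric acid cycle list were 0.05 and 0.06.

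**Figure D3:**
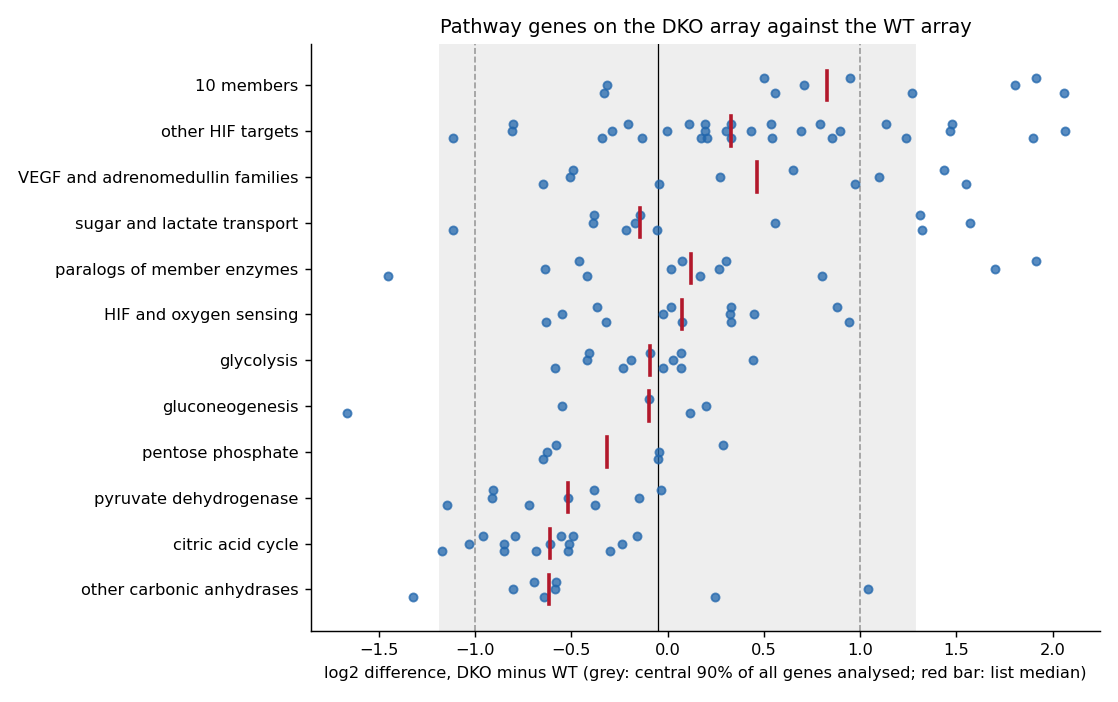
Log2 difference of DKO minus WT (horizontal axis) for each analysed gene of 12 lists, with a red bar at each list's median, a black line at the median of all genes, grey for the central 90% of all genes and dashed lines at 2-fold. The 10 members have the highest median (0.83), glycolysis enzymes sit near 0 (-0.09), and all citric acid cycle and pyruvate dehydrogenase genes lie left of 0, where 1 of the latter moves above 0 after cyclic loess. All 12 lists were chosen with earlier results of these data known.

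Markers of other cells also differed between the arrays. Beside the counts below, 7.33% of all genes were 2-fold higher and 8.19% 2-fold lower on DKO than on WT. Against the single deletions these shares were 7.33% and 6.51%. Epithelial markers were bright on all 4 arrays: Epcam, Cdh1 and 12 more pan-epithelial genes had a median level of 12.20 on DKO and 11.82 to 11.95 elsewhere, with 1 of 14 2-fold lower on DKO (Cdx1). On DKO, 14 of 16 neutrophil and 14 of 14 mononuclear phagocyte markers were 2-fold above WT, with medians of 2.15 each, and the summed intensity of the neutrophil list was 41713 on DKO, against 24513 (Bmi1_KO), 9751 (Mel18_KO) and 15752 (WT). For mononuclear phagocytes these sums were 16113, 5534, 3013 and 4362. Endothelial (median 0.98, 5 of 11 2-fold higher), fibroblast (0.79, 3 of 9), T and NK cell (0.49, 2 of 7), B and plasma cell (0.61, 2 of 6) and red cell markers (0.67, 1 of 3) were higher as well. Small bowel enterocyte genes had the largest median of the marker lists against WT (2.58), and 2.18 against the single deletions. Of these 8 of 12 were 2-fold above WT, led by Apoa1 (5.44) and Enpep (4.18), and 1, Fabp6 (-1.16), was 2-fold lower. Counting those not analysed, 8 of 10 T and NK cell and 7 of 9 B and plasma cell markers read under 6 on WT, where differences are rough. Against the single deletions the neutrophil and mononuclear medians were 2.32 and 2.27, again with 14 genes each past 2-fold. Of endothelial markers 3 passed it, and of B and plasma cell markers 1, Jchain (2.66), while Cd79a (-0.67) and Cd79b (-0.25) were lower. No listed marker of neutrophils or mononuclear phagocytes read under 6 on DKO. The part of these cells, or of whatever sets the small bowel genes apart, in the 10 genes on DKO was not tested.

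On the single deletions the neutrophil markers differed from WT in opposite directions. The neutrophil median was 0.99 on Bmi1_KO and -1.35 on Mel18_KO relative to WT. Slc2a3 followed that order, at 0.69 and -0.64, and Hk3 did so at 0.11 and -0.44. Adm (-0.35 and 0.60), Bnip3 (-0.34 and 0.18), Hk2 (-0.41 and 0.03) and Egln3 (-0.21 and 0.28) went the other way, lower on the array with more neutrophil signal. For these genes only the 0.60 of Adm and the -0.41 of Hk2 passed the error scale of 0.407, which is wide for these arrays. Pfkfb3 gave -0.15 and -0.38 and Vegfa -0.07 and -0.19, lower than WT on both arrays. Of genes analysed 93.7% had a higher value than Pfkfb3 on Mel18_KO. Pfkfb3 (0.23), Ndrg1 (0.12) and Vegfa (0.11) were higher on Bmi1_KO than on Mel18_KO, the order of the neutrophil markers. The other 7 of the 10 genes were lower. The part of neutrophils in these values was not tested.

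**Figure D4:**
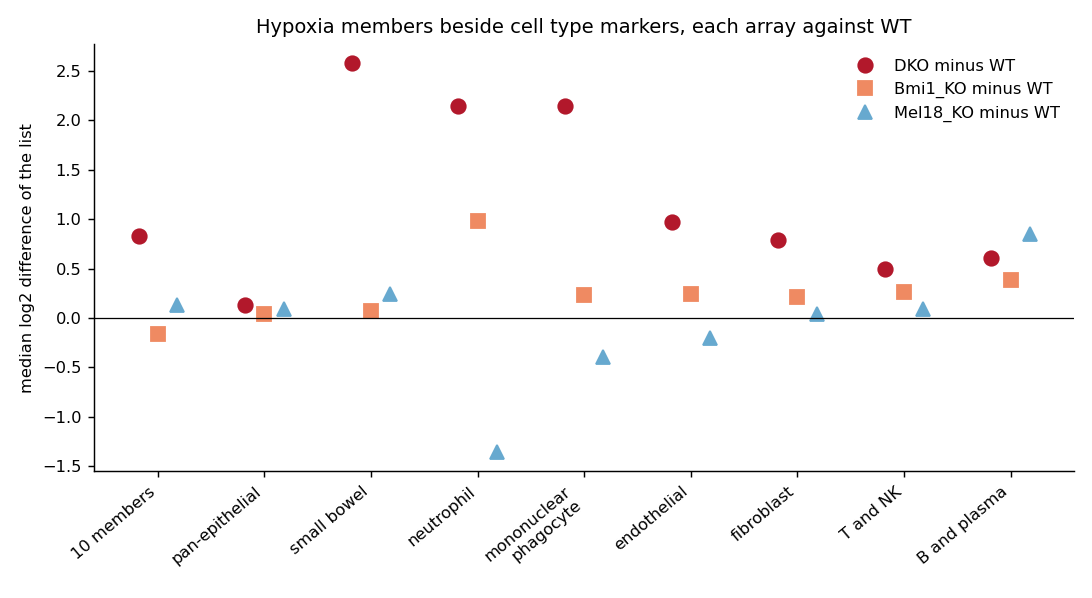
Median log2 difference from WT (vertical axis) of the 10 members and of 8 cell type marker lists (horizontal axis) on DKO, Bmi1_KO and Mel18_KO, each a single array. Neutrophil markers lie at 2.15, 0.99 and -1.35 on the 3 arrays, while the 10 members lie at 0.83, -0.16 and 0.14.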

How the data were processed

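RNA from colon epithelial cells (200 ng) was hybridised to Affymetrix Mouse Gene 1.0 ST arrays, 1 per genotype. The authors deposited probe set intensity values on a linear scale, from 4.70 to 13738, and the submitters' processing notes name Expression Console from Affymetrix and the RMA method, with no version. RMA brings the arrays to a common distribution, so a shift shared by most genes would be lost. Intensities carry no counts, so the number of arrays limits the precision.

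Of 35556 probe sets 21789 had 1 symbol in the platform annotation, 1621 several and 12146 none listed. Of the first group 21698 were found in the RefSeq gene table (GRCm38.p6) and 0 symbols were updated. The brightest probe set stood for a gene, giving 19938 genes, of which 12526 reached log2 6 on an array. Differences were taken on the log2 scale and counted at 2-fold and 1.5-fold. The error scale of 1 array (0.288) is the smallest scaled median absolute deviation, across genes, of the 3 orthogonal contrasts of the 4 arrays, and 0.407 is that of a pair. Average changes were fitted with limma 3.58.1 in R 4.3.3 (lmFit, eBayes, Benjamini-Hochberg, 1 residual degree of freedom). The procedure was run on simulated data with a change of 1 log2 unit for loss of Bmi1 in 200 genes. It recovered 200 of them at a noise of 0.1 and 94 at 0.3. The simulation held no departure from additivity, so it does not show what the fit recovers where DKO alone stands high. Python 3.11.15, numpy 2.4.6 and pandas 2.3.3 were used.

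The 10 members and all 21 other lists (11 of pathways, 10 of markers: pan-epithelial, neutrophil, mononuclear phagocyte, endothelial, fibroblast, T and NK, B and plasma, red cell, seminal vesicle, small bowel) were chosen with earlier results of these data known. Hk1, Egln1, Egln2, Pfkfb4, Car12, Kdr and Slc5a1 stand in more than 1 list. Genes named were the 10 members, up to 5 per pathway list with the largest DKO to WT differences of at least 1.5-fold, paralogs of members, up to 3 per marker list, and Hif1a, Epas1, Arnt and Vhl. Named after their values were seen were Ddit4, Stc2, Bnip3l, Ldha, Pgk1, Aldoa, Pkm, Aldoc, Bsg, P4ha1, Cul2, Elob, Hif1an and, below, Ak4 and Higd1a. Each value was recomputed with median centring, with cyclic loess, without a floor or with one of 8, with 32 added before log2, with probe sets averaged per gene, at 1.5-fold and 3-fold, and with a trend in limma.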

Additional observations from a re-analysis of the deposited data

Results flagged for a closer look

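Hk2 is given because loss of Bmi1 went with differences of opposite sign beside an intact and a lost Mel18, both past the error scale of 0.407. Bmi1_KO minus WT was -0.41, and DKO minus Mel18_KO was 0.68. The first value passes that scale only narrowly and lay between -0.435 and -0.399 over the alternatives run. The same change of sign, with wider swings but a first value inside the scale, was seen for Adm (-0.35 and 1.46), Pfkfb3 (-0.15 and 2.29), Bnip3 (-0.34 and 1.62) and Vegfa (-0.07 and 1.46), so Hk2 does not stand out among the 10 genes. None of these differences was tested, since each value rests on 1 pair of arrays.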

How the results depend on the processing

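Counts of the 10 genes on DKO against WT and against the single deletions kept within 1.5 times of the values given under every alternative run, and no value past 2-fold changed sign. Of the values in main comparisons 203 kept their place and 7 moved; of single genes and list counts 502 kept it and 34 moved. At 1.5-fold, 1 gene was higher on Bmi1_KO than on WT, beside 2.02% of all genes, and 2 were higher on Mel18_KO than on WT, beside 1.19%. At that fold 1 was lower on Bmi1_KO than on Mel18_KO, beside 1.24% of all genes, and 1 was below additivity. At 3-fold, 3 genes stood above additivity in place of 5. The shares of all genes for this count and for the one below additivity were not computed, so neither can be judged. With each array centred on its median, 1 gene was 2-fold lower on Bmi1_KO than on Mel18_KO, beside 36 of 12516 genes analysed. With a floor of 8 only 1 gene of the VEGF and adrenomedullin list was left, so its median of -0.51 is the value of that gene. The additive limma fits called 0 genes in every setting. Unadjusted p under 0.05 was reached by 274 to 471 genes for loss of Bmi1 and by 116 to 338 for loss of Mel18. These settings tested from 7476 to 19938 genes, so the counts have different totals. No paired analysis was possible because each genotype has 1 array and the labels number no replicates. Dim genes, such as Plod2, Pdk4 and Hk3 on WT, lie near background, where differences are rough.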

Other observations

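Other HIF targets also differed between the single deletions. Ak4, a mitochondrial adenylate kinase, was lower on Bmi1_KO than on Mel18_KO by a log2 difference of -1.18, the 1 gene of 29 past 2-fold. Higd1a, a respiratory chain assembly factor, gave -0.72 and P4ha1, a collagen prolyl hydroxylase, -0.65. Of the 29 genes 3 were at least 1.5-fold lower, beside 1.24% of all genes, and 1 at least 2-fold lower, beside 0.224%. The median was -0.08 beside -0.03 over all genes. P4ha1 was also 0.80 below WT on Bmi1_KO and 0.85 above WT on DKO, and Ak4 was 0.84 below WT on Bmi1_KO. On the same pair of arrays Slc2a3, a glucose transporter of blood cells among others, was higher on Bmi1_KO by 1.33, beside a neutrophil marker median of 2.51.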
